A study of Mus musculus with 30 samples.

Results

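The genes described here are 9 members of a list named for the fatty acid oxidation programme that the nuclear receptor PPAR-alpha is known to drive. They are Fabp1, Cpt1a, Pdk4, Acadm, Ehhadh, Acaa1b, Cyp4a10, Acot1 and Retsat. Of these, Retsat encodes an enzyme of retinol metabolism. All 9 were taken by symbol from a count table of 24746 gene symbols and were present in each of the 30 libraries. In the ileum of germ-free C3H/HeOuJ mice most of them stood higher than in colonized mice. At 6 weeks of age, 7 of the 9 were called lower in germ-free mice colonized in week 5, and all 9 in specific-pathogen-free mice. At 10 weeks the numbers were 7 and 3. Of all genes tested, 4.64% and 7.69% were called in either direction at 6 weeks, and 9.14% and 6.2% at 10 weeks. The members were chosen with earlier results of these data known. By fitted log2 fold change at 6 weeks, Cyp4a10, Fabp1 and Acot1 differed most, and Cpt1a and Acadm least.

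The study compared intestinal mRNA in 10 groups of 3 libraries, all from C3H/HeOuJ mice. Terminal ileum came from untreated mice of 6 or 10 weeks that were germ-free (GF), germ-free until they received a specific-pathogen-free microbiota in week 5 (COL), or specific-pathogen-free (SPF). Distal colon came from 10-week-old SPF and COL mice, either untreated or given 1.5% dextran sulphate sodium (DSS, a chemical that injures the colonic epithelium) for 4 days followed by 2 days of water. There was no germ-free colon group. RNA was taken from whole tissue, so every cell type of the gut wall contributed. Levels are CPM, the reads of a gene scaled to library size with TMM factors over all 30 libraries, given in the order of the libraries numbered 1 to 3. Each library was made from 3′ ends, so a CPM value does not grow with transcript length. A gene was called when its Benjamini-Hochberg adjusted p, over all genes of the fit, was under 0.05.

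PPAR-alpha is a fatty-acid-activated transcription factor that pairs with the retinoid X receptor and binds direct repeats in the promoters and enhancers of lipid genes. Its targets cover uptake and binding of fatty acids, entry into mitochondria, beta-oxidation in mitochondria and peroxisomes, omega-oxidation in the endoplasmic reticulum and ketone synthesis. In the small intestine it is known to act in enterocytes, which take up dietary fat.

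The promoters of the members were searched for such a repeat, and the sites found are shown because they are the only ones in these windows. The motif was AGGNCANAGGNCA, a pair of AGGNCA half-sites with 1 base between them, on either strand, in the 300 bases around each RefSeq start (GRCm38.p6). It occurred in 125 of 32851 promoters of all genes (0.381%), in 1 of 8 member promoters, that of Fabp1, and among the other genes of the pathway in that of Bco1, which encodes the enzyme that cleaves beta-carotene. A promoter entry for Cyp4a10 was not analysed here. Capitals mark the motif, which lies on the strand opposite to the gene in both.
Fabp1: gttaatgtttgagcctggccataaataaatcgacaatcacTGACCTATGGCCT
Bco1: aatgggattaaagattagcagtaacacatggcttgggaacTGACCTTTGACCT
The Fabp1 stretch is chr6:71199772-71199824, with the motif 67 to 55 bases before the RefSeq start. The Bco1 stretch is chr8:117095769-117095821, with the motif 56 to 44 bases before the start. A match describes the letters of this window and says nothing of binding, and no match in the other 7 says only that these letters are not in the window.

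The 18 ileum libraries held 2233837 to 9088573 reads assigned to genes and the 12 colon libraries 3830539 to 6791455. SPF ileum library 3 at 10 weeks was the shallowest and had a summed level of 244 CPM for 9 smooth muscle markers, against 1440 and 2080 CPM in the other SPF libraries of that age. Liver, which expresses several of the members, was checked with 8 markers, whose sum was lower in GF (145 to 155 CPM at 6 weeks) than in COL (181 to 256) and SPF (222 to 266). Its defining markers Alb and Apoa2 were at 0 to 1.64 CPM and at 0 to 0.149 CPM in ileum. The sum of 12 enterocyte markers at 6 weeks was 9940 to 10700 CPM in GF, 10800 to 11100 in COL and 9610 to 10900 in SPF, so the groups lay close together. At 10 weeks it was 9690 to 11800 CPM in GF, 8490 to 10800 in COL and 8390 to 12200 in SPF. At that age 4 of the 12 genes were lower in every COL library than in every GF library, and 0 were higher. The sums of other lists moved with microbial status, but not every gene of a list did. At 6 weeks, 1 of 10 proximal small intestine genes in COL and 4 in SPF had every library below every GF library. In each, 1 was above. At 10 weeks 3 and 2 were below, and 0 and 2 above. For smooth muscle at 6 weeks 3 and 6 of 9 were below and 0 above. Of 7 goblet genes 2 were below and 1 above in COL and in SPF, and all 5 Paneth genes were above. The sum of 10 proximal small intestine genes was 5130 to 7270 CPM in GF, 3940 to 4820 in COL and 2940 to 3890 in SPF, and that of the smooth muscle markers 3100 to 3870, 2410 to 2880 and 2240 to 2820. The sum of 14 clock genes was 346 to 394, 262 to 306 and 230 to 292 CPM. That sum adds genes that moved in opposite directions. At 6 weeks 7 of the 14 were lower in every COL library than in every GF library and 1 was higher. In SPF these numbers were 7 and 2. At 10 weeks they were 7 and 3 in COL and 3 and 0 in SPF. The mean of Tef at 6 weeks was 55.1 CPM in GF, 19.9 in COL and 19.1 in SPF, and that of Arntl 24.8, 36.3 and 32.1. At 10 weeks the proximal sum stood at 5520 to 6260, 2610 to 3670 and 2830 to 5370 CPM. The smooth muscle sum was 2320 to 3580, 2090 to 2190 and 244 to 2080. For clock genes it was 397 to 415, 253 to 316 and 301 to 359. Distal ileum markers (7 genes) at 6 weeks summed to 18400 to 33400 CPM in GF, 29700 to 37700 in COL and 28100 to 33700 in SPF. Their 10-week sums were 17200 to 36800, 12600 to 24000 and 18500 to 35900. Most of each distal sum was Fabp6, which alone stood at 16640 to 30570 CPM in GF at 6 weeks. At 6 weeks 2 of the 7 distal genes were higher in every COL library than in every GF library and 1 was lower. In SPF 2 were higher and 3 lower. At 10 weeks 1 was higher and 2 lower in COL, and 2 and 2 in SPF. In GF at both ages and SPF at 10 weeks, the library lowest in the distal sum was the highest for Fabp1. In COL at both ages and SPF at 6 weeks, that library was the lowest for Fabp1. Goblet cell markers at 6 weeks were higher in GF (20400 to 22500 CPM, against 16500 to 18700 in COL and 16300 to 18400 in SPF), and Paneth cell markers were lower (3040 to 3330, against 12400 to 15900 and 8900 to 9570). At 10 weeks goblet markers were at 21100 to 24000 CPM in GF, 11600 to 15600 in COL and 12800 to 23700 in SPF, and Paneth markers at 3070 to 3930, 5510 to 6080 and 4050 to 11000. The sum of 9 leukocyte markers was 61.6 to 211 CPM in GF, 94.0 to 109 in COL and 712 to 763 in SPF at 6 weeks, and 73.6 to 147, 1250 to 1490 and 984 to 1220 at 10 weeks. At 6 weeks only 1 of the 9 genes was higher in every SPF library than in every GF library, and 0 were in COL. At 10 weeks 7 were higher in COL and 5 in SPF. At both ages 0 were lower. The part of these lists in the member differences was not tested. In bulk tissue, fewer cells of a type and less RNA per cell cannot be told apart.

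Markers of fat tissue, which also expresses several of these genes, varied between libraries of 1 group and between groups. The summed level of 9 adipose markers in GF ileum was 1.98, 871 and 463 CPM at 6 weeks and 2.57, 975 and 2.18 CPM at 10 weeks, and the defining marker Adipoq was at 0 in GF library 1 of 6 weeks and in GF libraries 1 and 3 of 10 weeks. In COL ileum the sum was 6.82, 55.0 and 3.7 CPM at 6 weeks and 101, 255 and 513 CPM at 10 weeks. SPF ileum had 9.3, 7.78 and 4.17 CPM, and then 343, 199 and 6.5 CPM. So GF libraries 2 and 3 of 6 weeks lay above every COL and SPF library of that age. At 6 weeks GF library 1 was the highest of the 3 for Cyp4a10 and Fabp1, library 2 for Acot1, Cpt1a and Acadm, and library 3 for Acaa1b, Ehhadh, Pdk4 and Retsat. Without GF library 2, the one with the highest adipose sum, the SPF calls of Cpt1a and Acadm were lost, and without GF library 3 the COL and SPF calls of Ehhadh. The SPF calls of Cpt1a and Acadm were also lost without SPF library 1 or 2. The Ehhadh call in COL was also lost without COL library 2 or 3, and that in SPF without SPF library 2. The part of fat tissue in the member differences was not tested.

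**Figure D1:**
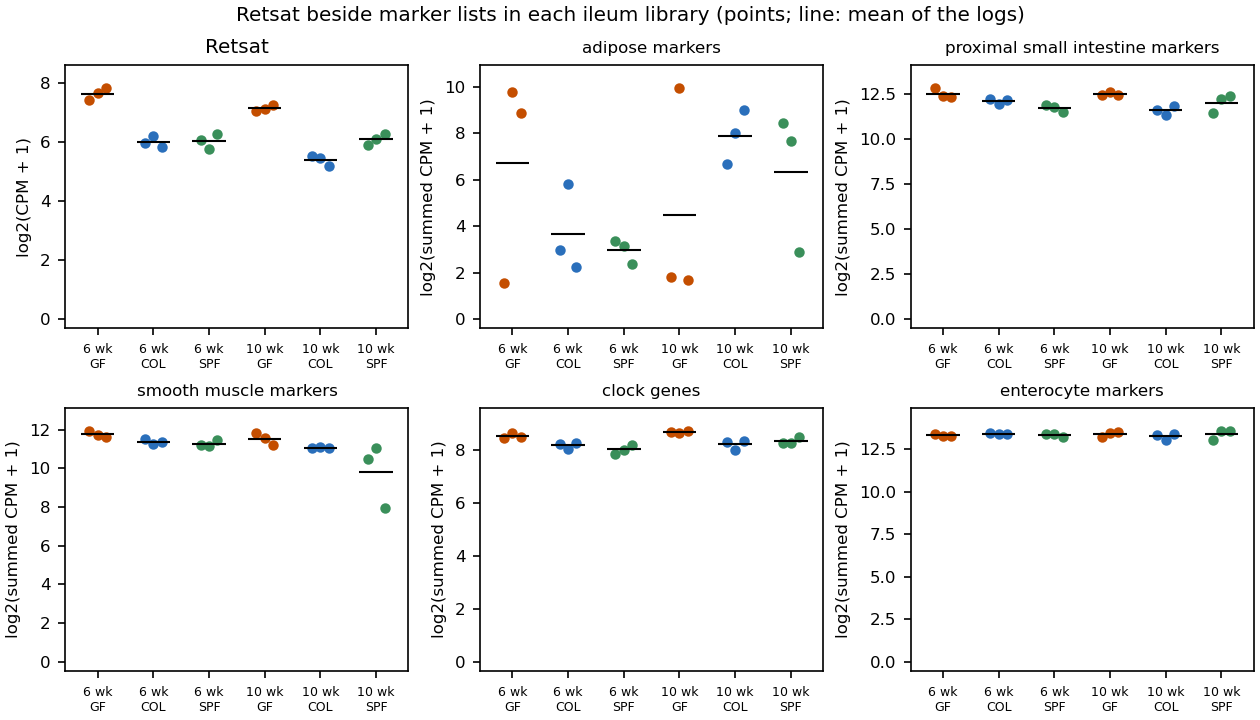
Retsat, as log2(CPM + 1), and the summed level of 5 marker lists, as log2(summed CPM + 1), in each ileum library (points) with the mean of the logs (lines), by age and microbial status. Retsat separates GF from colonized libraries. Adipose sums at 6 weeks are 1.98 to 871 CPM in GF, 3.7 to 55.0 in COL and 4.17 to 9.3 in SPF. Enterocyte sums over both ages lie between 8390 and 12200 CPM.

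Fabp1 encodes the liver-type fatty acid-binding protein, which carries fatty acids inside enterocytes and hepatocytes (chr6:71199827-71205023, plus strand). At 6 weeks it stood at 294.7, 219.1 and 224.6 CPM in GF ileum, at 44.1, 30.8 and 22.4 CPM in COL and at 15.9, 17.9 and 17.3 CPM in SPF. All 3 groups were apart from each other, with GF highest. The log2 fold change against GF was -2.94 ± 0.45 (SE, n = 3 a group) in COL, adjusted p = 0.0014, and -3.84 ± 0.47 in SPF, adjusted p = 0.00013. At 10 weeks Fabp1 stood at 92.3, 50.2 and 76.1 CPM in GF, at 2.69, 3.05 and 0.526 CPM in COL and at 38.0, 17.0 and 7.50 CPM in SPF. Here COL was the lowest group, at a log2 fold change of -5.06 ± 0.57 against GF, adjusted p = 6.1e-05. SPF was at -1.65 ± 0.45 against GF with adjusted p = 0.042, and this call was lost in 7 of 12 alternatives, with adjusted p up to 0.24. The adjusted p was 0.10 without SPF library 2, 0.063 without SPF library 3, 0.12 without GF library 1 and 0.11 without GF library 3.

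Cpt1a encodes the carnitine palmitoyltransferase that admits long-chain fatty acids to mitochondria and is the regulated step of their oxidation (chr19:3322334-3385733, plus strand). At 6 weeks it stood at 186.5, 211.9 and 186.8 CPM in GF, 159.4, 145.6 and 148.1 CPM in COL and 115.5, 109.7 and 126.4 CPM in SPF. The groups formed a staircase without overlap, but the COL difference from GF of -0.38 ± 0.18 on the log2 scale was not called (adjusted p = 0.29). The SPF difference of -0.72 ± 0.18 was called, with adjusted p = 0.014, and was lost without GF library 2 (0.075), SPF library 1 (0.068) or SPF library 2 (0.088). At 10 weeks the levels were 133.5, 174.5 and 136.1 CPM in GF, 102.5, 92.1 and 143.6 CPM in COL and 107.4, 153.6 and 190.4 CPM in SPF, and these groups overlapped. Neither difference was called, at -0.35 ± 0.18 in COL (adjusted p = 0.28) and 0.04 ± 0.18 in SPF (adjusted p = 0.94).

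Pdk4 encodes the kinase that switches off pyruvate dehydrogenase and so spares glucose when fat is burnt (chr6:5483351-5496309, minus strand). At 6 weeks it stood at 38.8, 38.5 and 63.3 CPM in GF, 19.8, 9.04 and 16.3 CPM in COL and 6.56, 5.19 and 8.94 CPM in SPF. Every COL library lay above every SPF library and below every GF library. The log2 fold change against GF was -1.64 ± 0.30 in COL, adjusted p = 0.0011, and -2.75 ± 0.31 in SPF, adjusted p = 2.5e-06. At 10 weeks the levels were 12.6, 17.4 and 14.7 CPM in GF, 6.09, 3.39 and 2.81 CPM in COL and 9.66, 11.8 and 9.50 CPM in SPF. COL had moved below SPF, and only COL was called against GF, at -1.82 ± 0.33 with adjusted p = 0.00069. The SPF difference at this age was -0.49 ± 0.32 (adjusted p = 0.44).

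Acadm encodes the dehydrogenase that starts each round of mitochondrial beta-oxidation on medium-chain fatty acids (chr3:153922357-153944632, minus strand). Its range was narrow. At 6 weeks it stood at 131.5, 162.1 and 147.4 CPM in GF, 129.8, 116.9 and 103.2 CPM in COL and 99.46, 99.97 and 98.89 CPM in SPF. The SPF difference from GF of -0.55 ± 0.15 was called, with adjusted p = 0.019, and was lost without GF library 2 (0.12), SPF library 1 (0.081) or SPF library 2 (0.081). COL was at -0.34 ± 0.15, with adjusted p = 0.21. At 10 weeks the levels were 130.5, 153.0 and 162.0 CPM in GF, 100.9, 89.7 and 92.0 CPM in COL and 111.1, 122.2 and 115.0 CPM in SPF. At this age it was COL that was called, at -0.61 ± 0.15 with adjusted p = 0.0075, while SPF was at -0.32 ± 0.15 with adjusted p = 0.23.

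Ehhadh and Acaa1b act in peroxisomes, where very long and dicarboxylic fatty acids are shortened. Ehhadh encodes the bifunctional hydratase and dehydrogenase (chr16:21761287-21787807, minus strand). It stood at 52.9, 41.2 and 89.5 CPM in GF ileum at 6 weeks, 28.3, 20.9 and 24.2 CPM in COL and 28.8, 22.3 and 27.1 CPM in SPF. GF library 3 was the highest of all, and the COL and SPF libraries shared 1 range below GF. The log2 fold changes were -1.33 ± 0.30 in COL, adjusted p = 0.0096, and -1.22 ± 0.30 in SPF, adjusted p = 0.011. Without GF library 3 they were -0.94 (adjusted p = 0.088) and -0.84 (adjusted p = 0.092), so neither was called. The COL call was also lost without COL library 2 (adjusted p = 0.068) or 3 (0.061), and the SPF call without SPF library 2 (0.078). At 10 weeks Ehhadh was at 47.1, 35.1 and 22.0 CPM in GF, 17.9, 14.6 and 27.2 CPM in COL and 13.0, 23.9 and 21.5 CPM in SPF. These groups overlapped, and neither difference was called, at -0.76 ± 0.30 in COL (adjusted p = 0.13, and 0.048 without GF library 3) and -0.83 ± 0.31 in SPF (adjusted p = 0.13).

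Acaa1b encodes a peroxisomal 3-ketoacyl-CoA thiolase, the last step of the cycle (chr9:119148023-119157093, minus strand). It stood at 169.6, 193.5 and 241.4 CPM in GF ileum at 6 weeks, 76.5, 48.5 and 33.5 CPM in COL and 51.9, 51.9 and 44.8 CPM in SPF. GF was far above both colonized groups, which overlapped. The log2 fold changes were -1.94 ± 0.25 in COL, adjusted p = 6e-05, and -2.01 ± 0.25 in SPF, adjusted p = 1.4e-05. At 10 weeks it was at 78.0, 65.4 and 69.9 CPM in GF, 22.2, 16.3 and 11.2 CPM in COL and 42.6, 46.9 and 28.5 CPM in SPF. The groups were ordered GF, SPF, COL without overlap. The COL difference was called, at -2.05 ± 0.27 with adjusted p = 1.8e-05, and the SPF difference of -0.79 ± 0.25 was not (adjusted p = 0.068), though it was with the replicate number as a block (adjusted p = 0.039) and in DESeq2 (0.041). In the last 300 bases of the Acaa1b transcript, where 3′ tags lie, 20.7% of 50-base windows also occur in its near-identical copy Acaa1a, so its counts are less certain than those of the other 8 members, which shared none. Acaa1a itself stood at 305.0, 317.2 and 366.1 CPM in GF, 208.8, 238.1 and 219.4 CPM in COL and 216.1, 243.2 and 199.9 CPM in SPF at 6 weeks, and it was not called against GF at either age.

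Cyp4a10 encodes a fatty acid omega-hydroxylase, a textbook target of PPAR-alpha (chr4:115518264-115533649, plus strand). It stood at 54.6, 40.2 and 21.7 CPM in GF ileum at 6 weeks and at 8.78, 8.86 and 19.8 CPM at 10 weeks. Outside GF it was close to absent. The COL libraries of 6 weeks held 2.34, 0 and 0 CPM, all 11 reads in library 1, and the SPF libraries 0.153, 0 and 0 CPM. The fitted log2 fold change of COL was -5.68 ± 0.85, adjusted p = 0.0012. It rests on those 11 reads, and ranged from -10.78 without COL library 1, where the group is at 0 and the fit is no bound, to -4.98 without COL library 3. For SPF at 6 weeks, 1 read faced 659 in GF, a 767-fold ratio with a 95% interval of 137 to 30300 that covers counting error only. At 10 weeks COL held no read against 198 in GF, at least 70.2-fold lower with the floor set at 3 reads over the group, and SPF held 2 reads, an 88.1-fold ratio with an interval of 24.1 to 733. All 4 differences were called. Cyp4a14, its close relative and another known target, had 0 CPM in every ileum library.

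Acot1 encodes the cytosolic thioesterase that releases free fatty acids from their acyl-CoA (chr12:84009490-84018371, plus strand). Its GF libraries of 6 weeks stood tightly together at 49.6, 52.6 and 48.3 CPM, against 3.84, 5.10 and 4.35 CPM in COL and 6.25, 3.50 and 11.0 CPM in SPF. COL and SPF shared 1 low range. The log2 fold changes were -3.51 ± 0.34 in COL, adjusted p = 4.3e-07, and -2.84 ± 0.32 in SPF, adjusted p = 1.8e-06. At 10 weeks the levels were 11.4, 17.9 and 13.7 CPM in GF, 4.66, 6.78 and 4.21 CPM in COL and 6.62, 7.68 and 10.5 CPM in SPF. All 3 groups lay closer together than at 6 weeks, with GF above the others. COL was called at -1.41 ± 0.33, adjusted p = 0.0057, and SPF was at -0.81 ± 0.33, adjusted p = 0.16.

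Retsat encodes retinol saturase, an enzyme of retinol metabolism (chr6:72598475-72608425, plus strand). At 6 weeks it stood at 172.9, 200.6 and 226.5 CPM in GF, 62.7, 72.8 and 56.8 CPM in COL and 66.2, 53.7 and 76.3 CPM in SPF. At 10 weeks it stood at 131.5, 139.7 and 152.1 CPM in GF, 45.3, 43.6 and 35.5 CPM in COL and 59.1, 68.7 and 76.0 CPM in SPF. Retsat, like Cyp4a10, was called in all 4 comparisons with GF under every alternative tried. The log2 fold changes were -1.65 ± 0.17 and -1.60 ± 0.17 for COL and SPF at 6 weeks, with adjusted p = 1.3e-06 and 9.2e-07. At 10 weeks they were -1.72 ± 0.17 and -1.03 ± 0.17, with adjusted p = 2.4e-07 and 0.00035.

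**Figure D2:**
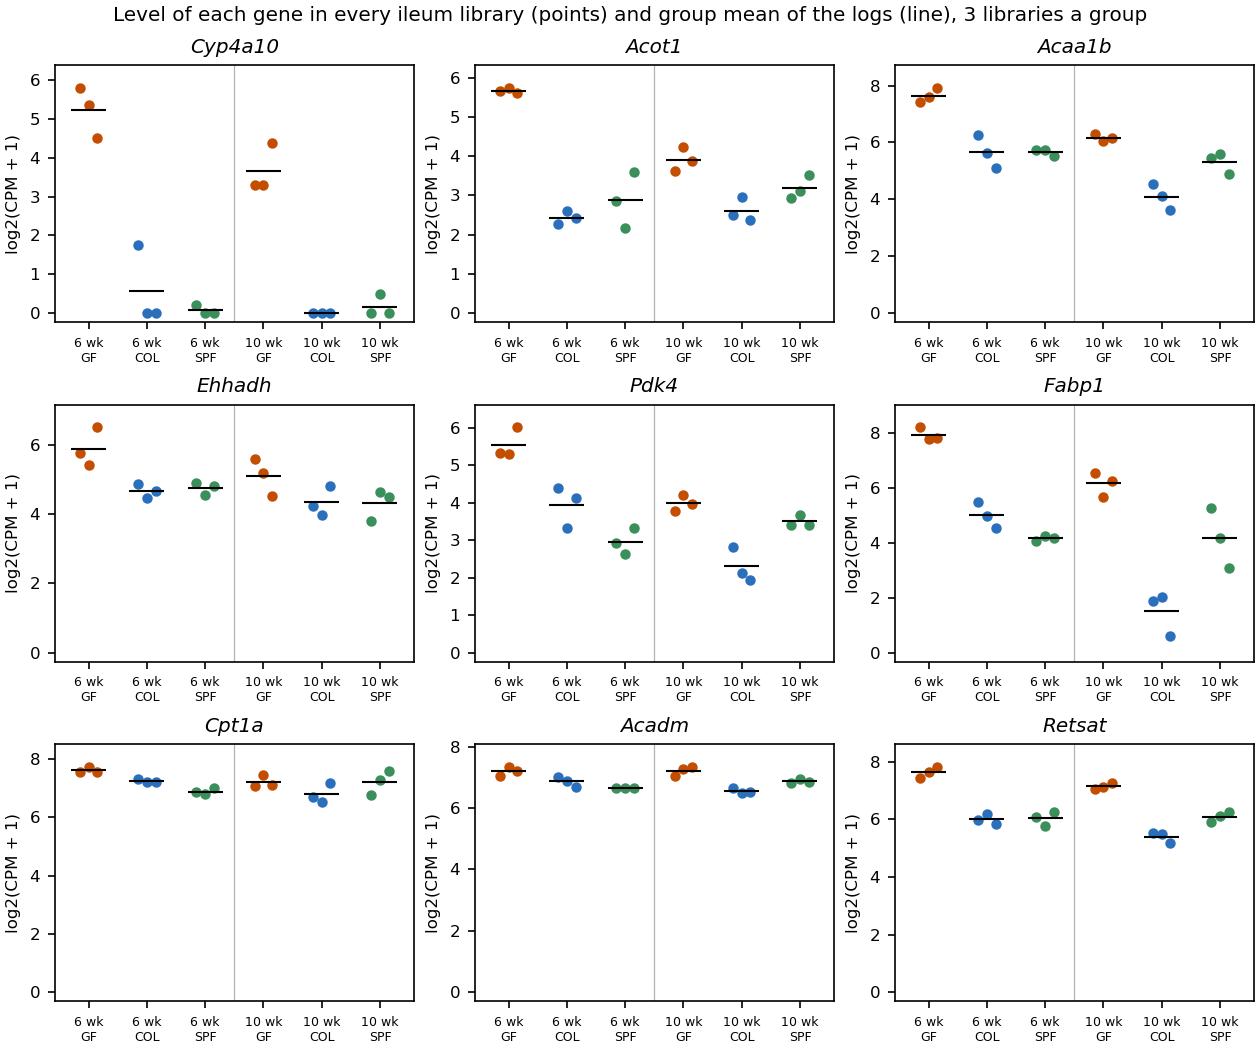
Level of the 9 genes, as log2(CPM + 1), in each of the 18 ileum libraries (points) with the mean of the logs (lines), by age in weeks and microbial status. GF libraries of 6 weeks are highest for 8 of the 9 genes by group mean, and Cpt1a and Acadm span the narrowest range.

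Set against all genes, the members' shift was one-sided. The members were chosen with earlier results of these data known, so this contrast is a description and no independent support. At 6 weeks the COL against GF comparison called 7 of 9 members, all lower, where 4.64% of the 13233 genes tested were called in either direction. The median log2 fold change was -1.65 over the members and -0.02 over all genes. SPF against GF at 6 weeks called 9 of 9, all lower, against 7.69% of genes, with medians of -2.01 and -0.02. At 10 weeks COL against GF called 7 of 9, all lower, against 9.14% of genes (medians -1.72 and 0.01), and SPF against GF called 3 of 9, all lower, against 6.2% (medians -0.81 and 0.02). All 9 members were lower in every COL library and in every SPF library than in every GF library at 6 weeks, as were 10.9% and 16.3% of all genes. At 10 weeks 7 members were so in COL and 7 in SPF, against 15.7% and 11.5% of all genes. Of the 26 called differences, 21 were called under each of their 12 alternatives, and none turned. The COL and SPF comparisons of an age share their GF libraries and are not independent of each other.

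**Figure D3:**
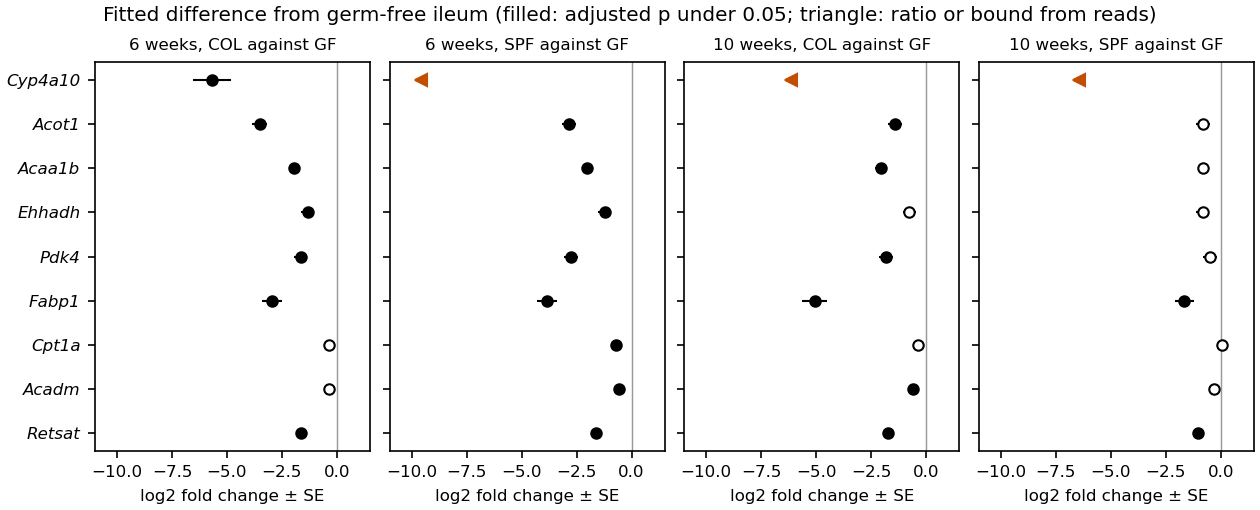
Log2 fold change (points, with SE bars) of the 9 genes in COL and SPF ileum against GF ileum of the same age, filled where adjusted p was under 0.05; triangles give the ratio or lower bound from reads for Cyp4a10 where a group held 3 reads or fewer. Most points lie left of 0, and the SPF comparison at 10 weeks has 6 open points.

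The GF level itself was lower at 10 than at 6 weeks for several members. Acot1 was at -1.81 ± 0.30, adjusted p = 0.017, Acaa1b at -1.51 ± 0.25, adjusted p = 0.017, and Pdk4 at -1.65 ± 0.30, adjusted p = 0.031. These 3 were among only 4 genes called in that comparison, 0.0302% of those tested. Each of the 3 lost its call when any 1 of the 6 GF libraries was left out, with adjusted p of 0.066 to 0.71 and log2 fold changes that stayed between -1.99 and -1.35. Pdk4 was also lost with the replicate block (adjusted p = 0.058). Fabp1 was at -1.76 ± 0.42 (adjusted p = 0.81), with the GF groups of the 2 ages apart, and was called with only the groups compared (adjusted p = 0.0021). In COL mice, Fabp1 was at -3.88 ± 0.58 (adjusted p = 0.0039), Pdk4 at -1.83 ± 0.33 (0.0041) and Acaa1b at -1.62 ± 0.27 (0.002) at 10 against 6 weeks, where 2.53% of genes were called, and these 3 calls were kept under all 11 alternatives. In SPF mice no member was called by edgeR or DESeq2 and none had an unadjusted p under 0.05, where 1.37% of genes were called.

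Whether the gap to GF narrowed with age was tested by an interaction. For SPF, the gap of Pdk4 was smaller by 2.26 ± 0.44 on the log2 scale at 10 weeks (adjusted p = 0.093) and that of Acot1 by 2.03 ± 0.45 (adjusted p = 0.16). No member was called by edgeR across all ileum groups, 6 had an unadjusted p under 0.05, and DESeq2 called 2, Pdk4 (adjusted p = 0.0034) and Acot1 (0.016). In edgeR, Pdk4 was also called with no filter (adjusted p = 0.017) and with only the groups compared (0.036), and both were without SPF library 3 of 6 weeks (0.027 and 0.015). In this interaction 0.0151% of genes were called. For COL, Acot1 was at 2.10 ± 0.46 (adjusted p = 0.066, but 0.0083 in DESeq2, 0.023 with no filter and 0.0064 with only the groups compared), and Fabp1 at -2.12 ± 0.72 (adjusted p = 0.31). No member was called by edgeR across all ileum groups, 2 had an unadjusted p under 0.05, and 0.144% of genes were called.

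COL and SPF mice were compared directly at each age. At 6 weeks edgeR and DESeq2 called no member, and 1, Pdk4, had an unadjusted p under 0.05, higher in COL by 1.11 ± 0.31 (adjusted p = 0.24), where 0.0982% of genes were called. At 10 weeks Fabp1 was lower in COL by a log2 fold change of -3.41 ± 0.58 (adjusted p = 0.047), where 0.0907% of genes were called. That call was lost in 6 of 11 alternatives, with adjusted p of 0.11, 0.14 and 0.19 without COL library 1, 2 or 3 and 0.081 without SPF library 2. Acaa1b was at -1.26 ± 0.27 (adjusted p = 0.066, and 0.0035 in DESeq2), Pdk4 at -1.33 ± 0.34 (0.19) and Retsat at -0.69 ± 0.18 (0.17, and 0.04 in DESeq2).

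Beyond the members, 127 other genes of the pathway had been listed in 10 groups, of which 125 were in the files and 113 were tested in ileum. At 6 weeks 20 were called lower and 1 higher in COL, and 31 lower and 2 higher in SPF. At 10 weeks 30 were lower and 2 higher in COL, and 13 lower and none higher in SPF. The medians were -0.34, -0.37, -0.37 and -0.25 in that order, between those of the members and those of all genes. Up to 3 called genes of each group with the smallest p were taken as examples for each comparison.

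Among 12 receptors and co-regulators, 2 were lower and 1 higher in COL and in SPF at 6 weeks, and 2 and 1 were lower at 10 weeks. The receptor gene Ppara was lower in all 4 comparisons. It stood at 196.2, 242.7 and 229.2 CPM in GF at 6 weeks, 129.4, 91.8 and 67.0 CPM in COL and 61.2, 62.0 and 76.3 CPM in SPF. At 10 weeks it stood at 204.4, 207.7 and 261.5 CPM in GF, 118.8, 65.5 and 54.1 CPM in COL and 99.5, 133.2 and 96.5 CPM in SPF. Every colonized library was below every GF library of its age, and its GF range at 6 weeks overlapped that at 10 weeks. The log2 fold changes of COL and SPF against GF were -1.22 ± 0.25 and -1.73 ± 0.25 at 6 weeks, with adjusted p = 0.0044 and 9.1e-05, and -1.45 ± 0.25 and -1 ± 0.25 at 10 weeks, with adjusted p = 0.00051 and 0.017. Ppard, the sister receptor, was called higher at 6 weeks, at 0.73 ± 0.18 in COL (adjusted p = 0.014) and 0.84 ± 0.18 in SPF (0.003). The Ppard call in COL was lost in 4 of 12 alternatives, with adjusted p of 0.073 without GF library 1, 0.063 without GF library 2 and 0.068 without COL library 2. The Ppara call in SPF at 10 weeks was lost without SPF library 1 (0.068) or 3 (0.065) or GF library 3 (0.08). Pparg, which is also a gene of fat cells, stood at 11.9, 7.70 and 4.91 CPM in GF and 4.26, 2.55 and 1.13 CPM in COL at 6 weeks, and was called at -1.64 ± 0.45 (adjusted p = 0.031). That call was lost in 6 of 12 alternatives, with adjusted p of 0.16 without GF library 1, 0.083 without GF library 2, 0.10 without COL library 2 and 0.20 without COL library 3. The adipose sums of these libraries were 1.98, 871 and 463 CPM in GF and 6.82, 55.0 and 3.70 CPM in COL, and their part was not tested. Rxra, the common partner, was not called against GF.

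In uptake and activation, 2 and 3 of 12 genes were called lower at 6 weeks and 4 and 3 at 10 weeks, in COL and SPF. Acsl1, which charges long-chain fatty acids with coenzyme A, was lower in all 4, from -1.32 ± 0.20 in COL at 6 weeks (adjusted p = 0.00016) to -0.90 ± 0.20 in SPF at 10 weeks (0.0056, and 0.052 without GF library 2). Fabp2, the intestinal fatty acid-binding protein, was lower in SPF at 6 weeks (-1.44 ± 0.23, adjusted p = 0.00017). In the carnitine shuttle, 1 and 2 of 9 were lower at 6 weeks and 1 and 0 at 10 weeks. Its example Crat, the carnitine acetyltransferase, was at -0.71 ± 0.16 in SPF at 6 weeks (adjusted p = 0.0064, but 0.054 without GF library 2 and 0.058 without SPF library 1).

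In mitochondrial oxidation 4 and 5 of 15 genes were lower at 6 weeks and 3 and 0 at 10 weeks. Acaa2, the mitochondrial thiolase, was at -0.90 ± 0.18 and -1.25 ± 0.18 at 6 weeks (adjusted p = 0.0024 and 3.8e-05). Hadha, a subunit of the trifunctional protein, was at -0.71 ± 0.16 and -0.62 ± 0.16 (adjusted p = 0.01 and 0.017). Its COL call was lost without COL library 2 (0.059) or 3 (0.098), and its SPF call without GF library 1 (0.061) or SPF library 1 (0.09) or 3 (0.059). Acadl, the long-chain counterpart of Acadm, was not called in any of the 4. The peroxisomal group had 2 and 3 of 13 lower at 6 weeks and 4 and 1 at 10 weeks. There, Acox2, the branched-chain acyl-CoA oxidase, was at -2.61 ± 0.45 and -1.99 ± 0.42 at 6 weeks (adjusted p = 0.00072 and 0.003), and Hsd17b4, the other bifunctional enzyme, at -1.09 ± 0.19 and -1.56 ± 0.19 (adjusted p = 0.0008 and 7.3e-06).

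Of the 8 thioesterases tested, none was called in COL at 6 weeks, 2 were lower and 1 higher in SPF, 1 was lower and 1 higher in COL at 10 weeks, and none was called in SPF at 10 weeks. Acot2, the mitochondrial neighbour of Acot1, was lower in SPF at 6 weeks (-1.75 ± 0.48, adjusted p = 0.024), and Acot7, a thioesterase best known from brain, was higher there (0.71 ± 0.17, adjusted p = 0.011). Without GF library 1 or 2 neither was called (adjusted p of 0.066 and 0.091 for Acot2, 0.064 and 0.079 for Acot7), nor was Acot2 without SPF library 1 or 3 (0.10 each). In omega-oxidation 3 and 4 of 6 tested were lower at 6 weeks and 4 and 2 at 10 weeks. Cyp4b1, a fatty acid hydroxylase, stood at 214.3, 152.2 and 118.9 CPM in GF at 6 weeks, 14.1, 37.3 and 38.3 CPM in COL and 28.2, 27.4 and 25.8 CPM in SPF, with no overlap of GF. It was called in all 4, from -2.57 ± 0.37 in COL at 10 weeks (adjusted p = 0.00024) to -2.12 ± 0.36 in SPF at 10 weeks (0.0018).

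The group of fuel switch and storage targets had 3 and 6 of 17 lower at 6 weeks and 6 and 2 at 10 weeks. Its leading gene Angptl4, a secreted inhibitor of lipoprotein lipase, was lower in all 4, from -1.29 ± 0.23 in COL at 6 weeks (adjusted p = 0.00099) to -2.32 ± 0.24 in COL at 10 weeks (4e-07). Plin2, a coat protein of lipid droplets, stood at 82.7, 90.5 and 74.3 CPM in SPF at 6 weeks, below every other library of that age, against 130.6, 164.2 and 150.5 CPM in GF and 130.8, 120.3 and 182.3 CPM in COL.

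Retinoid handling had 2 and 3 of 15 lower at 6 weeks, and 4 lower with 1 higher in COL and 4 lower in SPF at 10 weeks. Rdh7, a retinol dehydrogenase, stood at 290.1, 313.2 and 309.0 CPM in GF at 6 weeks, 67.8, 21.8 and 39.9 CPM in COL and 25.8, 29.4 and 49.1 CPM in SPF, far apart from GF. It was called in all 4, from -3.16 ± 0.36 in COL at 10 weeks (adjusted p = 2.4e-05) to -2.49 ± 0.35 in SPF at 10 weeks (0.00028). Lrat, which stores retinol as esters, was lower in all 4 too, from -1.57 ± 0.22 in SPF at 6 weeks (adjusted p = 3.5e-05) to -0.96 ± 0.22 in SPF at 10 weeks (0.0071, and 0.076 without GF library 1). Of the 83 called differences of these 35 example genes, 50 were called under every alternative and none turned.

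**Figure D4:**
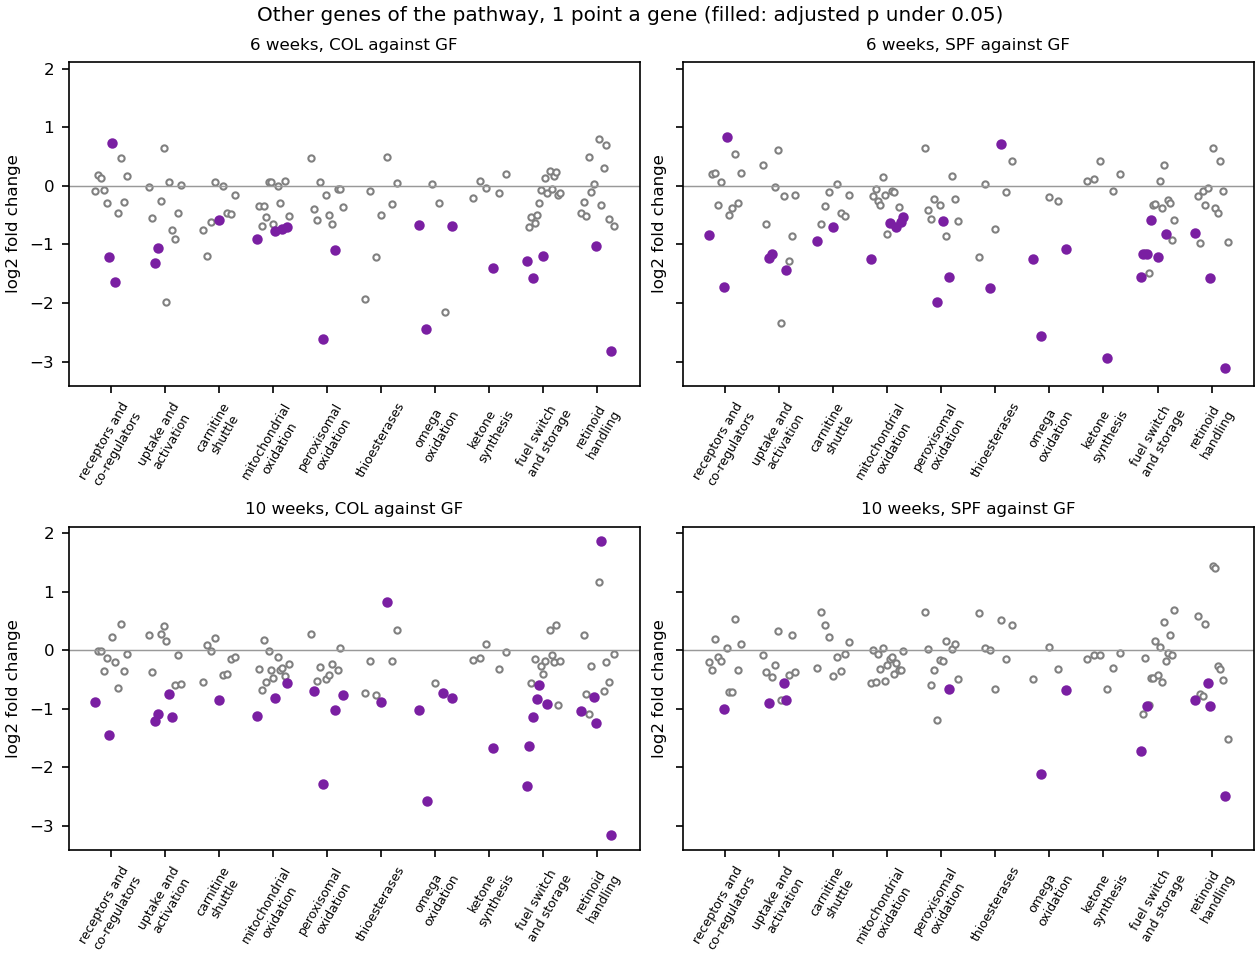
Log2 fold change against GF ileum of the other pathway genes in 10 groups (1 point a gene, filled where adjusted p was under 0.05), for COL and SPF at 6 and 10 weeks; 3 or 4 genes a panel with an SE above 1 are not drawn. Filled points lie below 0 in most groups, and receptors, thioesterases and retinoid genes also hold points above it.

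Members resembled each other across the 18 ileum libraries, which share the groups compared above, so the likeness is a description. Pearson's r of a member's log level with the mean of the other members was 0.957 for Retsat, 0.92 for Pdk4 and 0.913 for Acaa1b, and lowest for Cpt1a at 0.702 and Ehhadh at 0.762. Among 8564 genes of at least 10 CPM outside the lists, the profiles nearest to the members' mean were those of Tm4sf4 (r = 0.952), Cbr1 (0.932), Dhrs4 (0.929), Clec2e (0.924) and Hsdl2 (0.919). Tm4sf4, a tetraspan membrane protein gene, stood at 205.5, 195.4 and 209.6 CPM in GF at 6 weeks, 75.0, 66.3 and 62.3 CPM in COL and 33.6, 41.1 and 52.1 CPM in SPF. At 10 weeks it stood at 122.1, 201.8 and 158.9 CPM in GF, 30.8, 21.2 and 28.4 CPM in COL and 63.9, 57.3 and 64.0 CPM in SPF, with COL above SPF at 6 weeks and below it at 10 weeks.

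In the distal colon the members ranged from well expressed to close to absent. By group mean, Acot1 stood at 6.9 to 12.2 CPM, Ehhadh at 3.8 to 8.1, Pdk4 at 1.4 to 3.9 and Acaa1b at 1.1 to 1.9. Cpt1a stood at 117.6 to 235.8 CPM over the 12 libraries, Acadm at 54.1 to 124.8 CPM and Retsat at 18.5 to 88.9 CPM, while Fabp1 had 0 to 0.421 CPM and Cyp4a10 a single read in all. Both of the latter were too low to be tested within colon, which left 7 members.

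Retsat was the only one of the 7 called under DSS, and it was lower in both kinds of mice. It stood at 70.9, 39.1 and 80.6 CPM in untreated SPF colon and at 26.9, 18.5 and 22.6 CPM after DSS, and at 88.9, 51.7 and 58.7 CPM in untreated COL colon and 23.5, 27.4 and 35.4 CPM after DSS. Treated and untreated libraries did not overlap in either status. The log2 fold change was -1.48 ± 0.30 in SPF, adjusted p = 0.0027, where 24.1% of genes were called, so 1 called member of 7 is below that share. It was -1.21 ± 0.29 in COL, adjusted p = 0.02, where 7.14% of genes were called. The COL call was lost without COL DSS library 1 (adjusted p = 0.085) or 2 (0.07) or untreated COL library 1 (0.12), and the SPF call was kept under all 11 alternatives. Several marker sums were also lower after DSS. In SPF colon, untreated and then DSS, they were 5110 to 6060 and 956 to 2870 CPM for smooth muscle, 16200 to 21300 and 1400 to 8570 for goblet cells, 1420 to 1960 and 613 to 788 for fibroblasts, and 353 to 748 and 259 to 285 for clock genes. In COL colon they were 4660 to 4890 and 1250 to 4240, 14700 to 16100 and 7700 to 10400, 1310 to 1410 and 812 to 1030, and 364 to 410 and 225 to 266. Crypt markers were higher, from 198 to 243 CPM to 438 to 563 in SPF and from 178 to 284 CPM to 470 to 517 in COL. Paneth markers were higher too. In SPF they went from 232 to 530 CPM to 1870 to 2870, and in COL from 154 to 196 CPM to 2020 to 3110. Some lists were split among genes whose DSS and untreated libraries did not overlap. Of 5 Paneth genes, 2 were higher and 1 lower in SPF, and 1 and 1 in COL. Of 14 clock genes, 2 were higher and 7 lower in SPF, and 1 and 6 in COL. Of 7 goblet genes in COL, 1 was higher and 4 lower. The part of these lists in the Retsat difference was not tested. COL DSS library 2 had a summed level of 627 CPM for 6 pancreas markers, against 41.9 and 35.0 CPM in the other COL DSS libraries. Between COL and SPF colon no member was called by edgeR or DESeq2 with or without DSS and none had an unadjusted p under 0.05, where 0% and 0.00778% of genes were called.

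Between tissues at 10 weeks without DSS, peroxisomal Acaa1b was lower in colon than in ileum, at -5.07 ± 0.47 in SPF (adjusted p = 8.3e-10) and -3.16 ± 0.43 in COL (1.3e-06). Fabp1 had 384 reads in SPF ileum and none in SPF colon, at least 129-fold lower, and 36 against 2 reads in COL, a 19.0-fold ratio with a 95% interval of 4.9 to 163. Ehhadh was lower in colon, at -1.36 ± 0.43 in SPF (adjusted p = 0.014) and -1.29 ± 0.41 in COL (0.019), and so was Pdk4 in SPF, at -1.82 ± 0.62 (0.026). Retsat was higher in COL colon than in COL ileum by 0.68 ± 0.23 (adjusted p = 0.027). So 4 of 9 members were called in SPF, where 32.5% of genes were called, and 4 of 9 in COL, where 26.2% were, shares near the background. The Ehhadh, Pdk4 and Retsat calls were each lost when some single library was left out. Ehhadh reached an adjusted p of 0.064 in SPF and 0.12 in COL, Pdk4 0.12 without untreated SPF colon library 2, and Retsat 0.24 at 0.42 without untreated COL colon library 1.

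**Figure D5:**
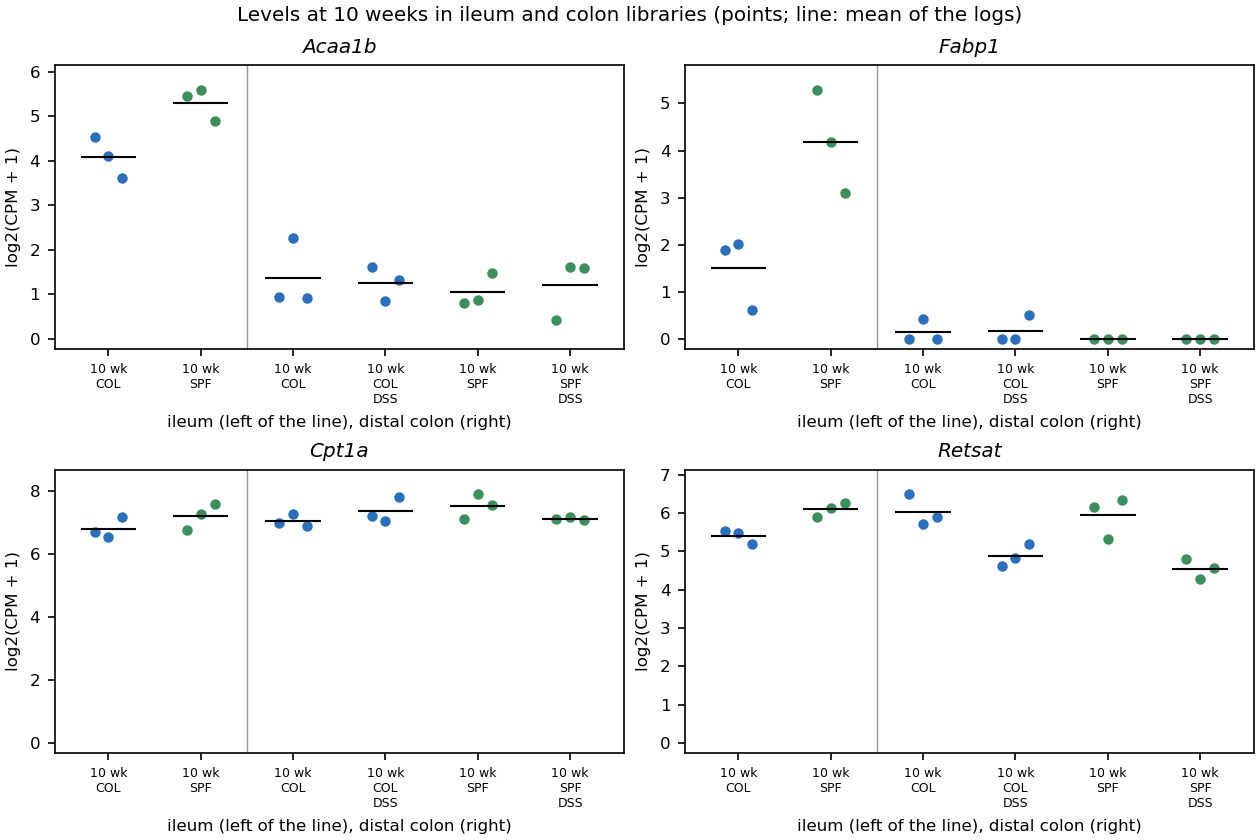
Level of Acaa1b, Fabp1, Cpt1a and Retsat, as log2(CPM + 1), in the ileum and distal colon libraries of 10-week-old COL and SPF mice (points) with the mean of the logs (lines). Fabp1 is near 0 in colon and Acaa1b is low there, Cpt1a is alike in both tissues, and Retsat is lower in the DSS libraries than in the untreated ones.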

How the data were processed

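The deposited files hold read counts per gene symbol, 1 table for each of 30 libraries, with 5 summary lines left out of all totals. Per the labels, total RNA went into QuantSeq 3′ tag libraries read on an Ion Torrent. The submitters' processing notes list STAR 2.5.3a, HTSeq, Trimmomatic 0.36, FastQC 0.11.5 and the build mm10. The HTSeq version, strand setting and annotation are not given in the sources used here. Reads assigned to genes were 46.5 to 54.1% of an ileum and 44.6 to 52.7% of a colon library, and reads placed at several sites, left uncounted, 28.0 to 34.3% and 30.3 to 36.9%.

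Counts were fitted with edgeR 4.0.16 in R 4.3.3 (TMM, filterByExpr, robust quasi-likelihood test, 1 mean per group): 18 ileum libraries (13233 genes), 12 colon libraries (12855) and all 30 for the tissue comparison (13807). The code was checked on simulated counts. The SE is the log2 fold change over the square root of F. DESeq2 1.42.0, no filter, DESeq2 scaling, only the groups compared, the replicate block, both GF libraries numbered 1 left out and each library left out were the alternatives. The interaction of COL against SPF with age was added after seeing the data. Gene positions are from the GENCODE annotation of GRCm38 and promoters from RefSeq.

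The members, lists and tests were chosen with earlier results of these data known. Named genes are the 9 members, up to 3 called genes with the smallest p per pathway group and comparison with GF, some fixed genes and the 5 nearest profiles. Some of the genes this rule names are not reported here. No label says whether each library is another mouse. The p-values therefore reflect the scatter among the libraries, which may be technical. Same-numbered SPF and GF ileum libraries of 10 weeks deviated together (correlations of 0.21, 0.18 and 0.18, against a mean of -0.10 for other numbers). Each COL ileum library of 10 weeks also correlated best with the 6-week COL library of its number, but weakly. Those correlations were 0.09, 0.08 and 0.15, against a mean of -0.05 for other numbers. No label gives a source for such pairing, and no other pair of groups showed either pattern.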

Additional observations from a re-analysis of the deposited data

Results flagged for a closer look

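The difference between COL and SPF ileum was called as changing with age for 2 members, by the test of COL against SPF at 10 weeks minus the same at 6 weeks, which called 0.166% of genes. The test was added after these group means had been seen, so it is no independent support, and it does not test which group was higher at either age. For Pdk4 the difference was -2.44 ± 0.47 on the log2 scale (adjusted p = 0.022): the group mean of COL was above that of SPF at 6 weeks (15.04 and 6.89 CPM, n = 3 each) and below it at 10 weeks (4.10 and 10.3 CPM). Neither age alone was called (adjusted p = 0.24 and 0.19). The interaction call was lost in 8 of 17 alternatives, with adjusted p from 0.00079 to 0.10, the highest without COL library 1 of 6 weeks.

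For Fabp1 the difference was -4.31 ± 0.74 (adjusted p = 0.039), with group means of 32.4 CPM in COL and 17.0 CPM in SPF at 6 weeks and of 2.09 and 20.8 CPM at 10 weeks. By age, COL against SPF was not called at 6 weeks (adjusted p = 0.65) and was at 10 weeks (0.047). The interaction call was lost in 9 of 17 alternatives, with adjusted p from 2.8e-05 to 0.13, the highest without SPF library 1 of 6 weeks. The other 7 members were not called in this test.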

How the results depend on the processing

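For single genes, 2009 re-computations of 163 results were made. Of these, 1773 kept the direction and the side of the threshold, 211 fell below it, 21 rose above it and 4 turned. The counts of genes and members called, given below, are not part of this tally. The 4 that turned were all Cpt1a in SPF against GF ileum at 10 weeks, which was not called: -0.05 with both GF libraries numbered 1 left out and -0.15 to 0.20 with each library left out. The cause was not tested for any of the changes below. DESeq2 scaling inside edgeR changed none of the counts below by more than 1.5 times.

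Counts of genes called are given for SPF or COL against GF, COL against SPF, and the interactions with age. At 6 weeks COL against GF called 614 genes, 389 without both GF libraries numbered 1, and 311 to 751 with each library left out. SPF against GF called 1018, then 1604 with only the groups compared, 672 without both GF libraries numbered 1 and 513 to 944 with each left out. COL against SPF called 13, then 64 by DESeq2, 66 with only the groups compared and 8 to 18 with each left out. At 10 weeks COL against GF called 1209 (713 to 1225 with each left out), and SPF against GF 821 (502 with only the groups compared, 437 to 1010 with each left out). COL against SPF called 12 genes and 1 member, then 43 and 3 by DESeq2, 4 and 0 with only the groups compared, 6 genes with the replicate block, and 5 to 97 genes and 0 to 2 members with each left out.

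By age, GF called 4 genes and 3 members, then 9 genes by DESeq2, 0 and 0 without both GF libraries numbered 1, and 0 to 1 genes and 0 members with each left out. COL called 335, then 710 by DESeq2, 636 with only the groups compared and 54 to 320 with each left out. SPF called 181, then 569 by DESeq2, 29 with only the groups compared, 109 with the replicate block and 0 to 416 with each left out. The interaction of COL against GF with age called 19 genes and 0 members, then 134 and 1 by DESeq2, 50 and 1 with no filter, 129 and 1 with only the groups compared, 29 genes with the replicate block and 15 to 31 with each left out. That of SPF against GF called 2 and 0, then 28 and 2 by DESeq2, 7 and 1 with no filter, 6 and 1 with only the groups compared, 0 genes without both GF libraries numbered 1, and 0 to 13 genes and 0 to 2 members with each left out. That of COL against SPF called 22 and 2, then 114 genes by DESeq2, 1 member with no filter, 13 and 0 with only the groups compared, and 9 to 168 genes and 0 to 2 members with each left out.

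In colon, DSS in SPF called 3097 genes, then 1728 with only the groups compared and 1915 to 3409 with each left out. DSS in COL called 918 genes and 1 member, then 1383 by DESeq2, 1839 with only the groups compared, and 376 to 602 genes and 0 to 1 members with each left out. COL against SPF called 0 untreated (28 by DESeq2, 8 with no filter, 0 to 94 with each left out) and 1 under DSS (4 by DESeq2, 0 with only the groups compared, 0 with the replicate block, 0 to 29 with each left out). Between tissues SPF called 4484 genes, 2551 with only the groups compared, and 4 members lower, 2 to 4 with each left out. COL called 1 member higher, 0 to 1 with each left out.

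The replicate number as a block changed 2 member calls beside the counts above: Acaa1b in SPF against GF at 10 weeks was called (-0.82, adjusted p = 0.039), and Pdk4 in GF by age was not (-1.62, adjusted p = 0.058). Depth limits the low members most: Cyp4a10 outside GF and Fabp1 in colon rest on a few reads. Their folds are bounds or ratios with wide intervals, apart from the fitted fold of Cyp4a10 in COL at 6 weeks, which rests on 11 reads of 1 library.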
